A study of Homo sapiens with 6 samples.

Results

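In H524 cells, 4863 of the 20593 regions bound by the transcription factor NeuroD1 lay close enough together to form 1237 stitched clusters. Identical intervals in the H524 NeuroD1 list were merged, regions whose edges were at most 12500 bp apart were stitched, and every group of 3 or more regions was kept as a cluster. Its constituent regions are called members here. They were thus chosen by the positions of the NeuroD1 regions measured in H524 and by nothing else, and cluster size, length and spacing are given as a description. The 15730 other regions comprised 4704 regions in 2352 pairs and 11026 regions that stood alone.

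H524 and H82 are established human small cell lung cancer cell lines, and both were cultured untreated. Chromatin immunoprecipitation sequencing was done with an antibody to NeuroD1 and with an antibody to H3K4me3, in 1 library per antibody and line. Input libraries without antibody also exist for both lines and were not analysed here. The deposited lists hold 20593 NeuroD1 and 18595 H3K4me3 regions for H524, against 3854 NeuroD1 and 18208 H3K4me3 regions for H82. No reads are given, so depth is unknown, and with 1 library per group no difference could be set against replicate error and no p-value is given. The 95% intervals cover counting error within these lists only, and neighbouring regions are not independent draws.

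NeuroD1 is a basic helix-loop-helix factor of neurons and endocrine cells that binds E-box DNA together with a ubiquitous partner protein. In small cell lung cancer it marks a neuroendocrine subtype. H3K4me3 is a histone mark found mainly around active promoters, so its presence separates promoter-like from promoter-distal binding. Groups of binding sites placed close together are a common way of describing candidate regulatory domains around cell identity genes, and a distance such as the one used here is often chosen to join them.

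Sequences of the members themselves were not used here, because no genome in the build of the lists, hg19, was at hand. The promoters of NEUROD1 and OTX2 are shown as examples. The clusters at these genes, described below, had H3K4me3 of both lines on every member. So did other clusters, among them those at SOX11, at GLI1 with INHBE and at PVT1, whose promoters are not shown. Each sequence holds the 250 bases before an annotated start, from RefSeq GRCh38.p14, and both genes lie on the minus strand, NEUROD1 on chromosome 2 and OTX2 on chromosome 14. Capitals mark the E-box CANNTG, which reads the same on both strands. The E-box form CAGCTG was also counted on its own, as was CAGATG, which reads CATCTG on the opposite strand.
NEUROD1: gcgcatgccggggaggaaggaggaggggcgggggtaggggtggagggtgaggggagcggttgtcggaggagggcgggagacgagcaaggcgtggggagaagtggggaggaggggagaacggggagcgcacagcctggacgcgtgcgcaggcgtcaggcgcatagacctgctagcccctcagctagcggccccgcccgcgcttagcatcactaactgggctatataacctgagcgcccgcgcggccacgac
OTX2 entry A: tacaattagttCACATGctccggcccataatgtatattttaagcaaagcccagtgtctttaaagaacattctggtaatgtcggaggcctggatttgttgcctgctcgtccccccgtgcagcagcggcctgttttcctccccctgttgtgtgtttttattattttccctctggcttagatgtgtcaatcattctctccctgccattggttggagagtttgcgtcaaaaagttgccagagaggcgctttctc
OTX2 entry B: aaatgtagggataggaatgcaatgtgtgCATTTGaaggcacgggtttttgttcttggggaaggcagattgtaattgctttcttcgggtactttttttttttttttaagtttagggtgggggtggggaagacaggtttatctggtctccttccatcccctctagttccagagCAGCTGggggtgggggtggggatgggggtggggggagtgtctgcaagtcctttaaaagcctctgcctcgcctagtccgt
The NEUROD1 window held 0 matches to CANNTG, and the OTX2 windows held 1 and 2. CAGCTG occurred once, in OTX2 entry B, and CAGATG on either strand occurred in none of these windows. Of 35116 promoter windows of this length, 61.8% held CANNTG, 14.0% held CAGCTG and 12.2% held CAGATG on either strand. Whether a member covers these bases was not measured, because the builds differ, and a match or its absence describes these letters only.

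Most clusters were small. Of the 1237 clusters, 714 (57.7%) had exactly 3 members, 260 had 4, 132 had 5, 106 had 6 to 9 and 25 had 10 or more, with a maximum of 22. Cluster length had a median of 12.4 kb and ran from 1.61 to 103 kb. NeuroD1 regions covered 18.6% of the summed cluster length of 17267 kb, and the gaps between neighbouring members had a median of 2.54 kb. The list held no break at the stitching distance: 214 gaps were up to 1 kb shorter than it and 199 were up to 1 kb longer. The longest gap that was joined measured 12.497 kb and the shortest that was not joined measured 12.502 kb.

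**Figure D1:**
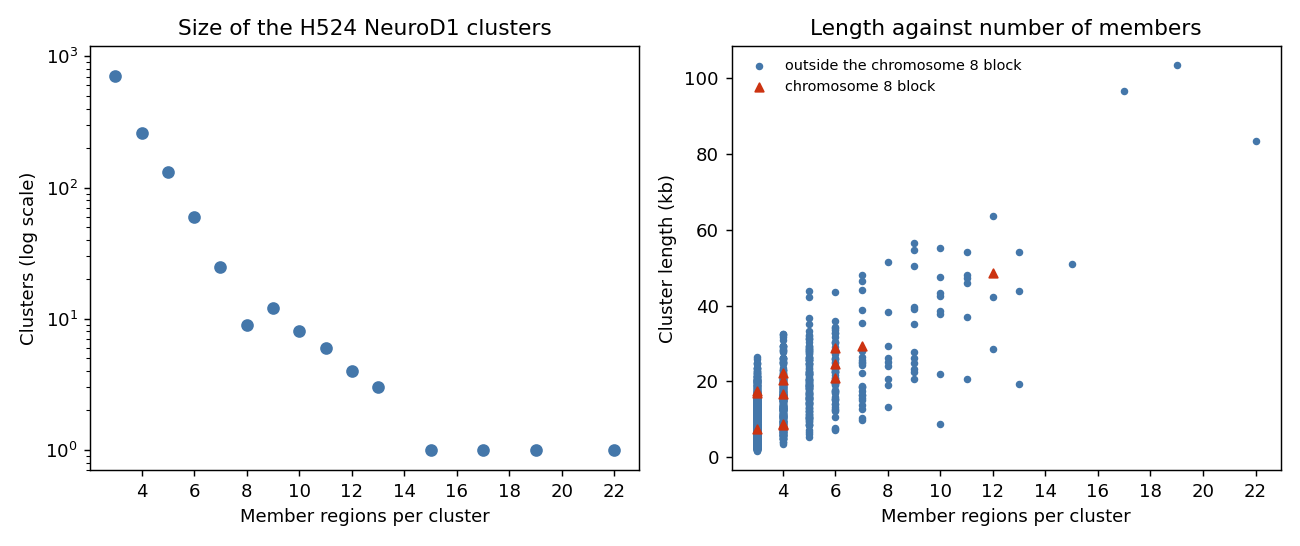
Left, number of H524 NeuroD1 clusters (log scale) for each number of member regions; right, length of each cluster in kb against its number of members, with the clusters in chr8:127000001-129000000 as triangles. Counts drop from 714 clusters of 3 members to 1 cluster of 22, and length spreads widely at each number of members, up to 103 kb.

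Members differed slightly from the other regions in the authors' peak score, taken as −log10 of an adjusted p-value, and in width. Median scores were 4.31 for members, 4.04 for regions in pairs and 4.04 for regions alone, and median widths were 527, 478 and 450 bp in the same order. Several summits were listed for 16.8% of members, 12.9% of paired regions and 9.67% of lone regions. In the highest of 10 score classes lay 13.1% of members and 8.51% of lone regions. Over clusters, the median of the highest member score was 9.81 and that of the lowest was 2.04, and 479 clusters (38.7%) had a member in the highest score class. The highest and lowest of several scores differ by construction. These values were not set against groups of regions drawn without regard to position.

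Clusters occurred on all 23 chromosomes in the list, but unevenly. The share of NeuroD1 regions that were members was 38.4% on chromosome 17, 35.9% on chromosome 16 and 30.0% on chromosome 14, beside 23.6% of the list. On chromosome 10 it was 2.84%, with 4 of 141 regions. Chromosome 17 had 1252 listed regions (6.08% of the list), against 0.685% of the list on chromosome 10. Densely listed regions stitch more readily at a fixed distance, and the shares were not adjusted for density. The distance between neighbouring clusters on a chromosome had a median of 641 kb. Of the 1214 neighbouring pairs, 151 were at most 50 kb apart, and 23 runs held 3 or more such clusters.

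H3K4me3 lay on few members. In H524, 697 of 4863 members (14.3%, 13.4 to 15.3) overlapped an H3K4me3 region by at least 1 bp, against 2604 of 15730 other regions (16.6%, 16.0 to 17.1), beside 16.0% of all H524 NeuroD1 regions. The difference of -2.22 percentage points (-3.35 to -1.06) was larger than its counting error in the full list, but it did not hold in every subset. It was 0.74 with a stitching distance of 5 kb, 0.36 when regions at or above the median score were stitched and 4.49 when the 3854 highest-scoring regions were stitched, and each of these intervals included 0. Members had the higher share on 7 of 23 chromosomes and in 2 of 10 score classes.

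The same held for the mark in the other line. H82 H3K4me3 lay on 677 members (13.9%) and on 2539 other regions (16.1%), a difference of -2.22 points (-3.33 to -1.07), beside 15.6% of all H524 NeuroD1 regions. With a stitching distance of 5 kb this difference was 0.15, and with the 3854 highest-scoring regions it was 4.02. The deficit was found among regions marked in both lines, with 9.29% of members and 11.8% of other regions (-2.50 points, -3.44 to -1.52), beside 11.2% of the list. Regions marked in H524 alone made up 5.04% of members and 4.76% of other regions, beside 4.82% of the list. Those marked in H82 alone made up 4.63% of members and 4.34% of other regions, beside 4.41% of the list, and both of these differences had intervals that included 0.

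Members were nevertheless nearer to H3K4me3 than other regions. Of the members, 40.0% (38.7 to 41.4) lay on an H524 H3K4me3 region or within 12500 bp of it, against 31.1% (30.4 to 31.8) of other regions, beside 33.2% of the list. This difference of 8.94 points (7.39 to 10.5) kept its direction under each of the 12 alternatives run, from 6.79 to 19.1 points. Unmarked members had a median distance of 38.0 kb to the nearest H3K4me3 region, and unmarked other regions 69.3 kb. Members have neighbours within this distance by construction, so a single marked region brings several members into the count.

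**Figure D2:**
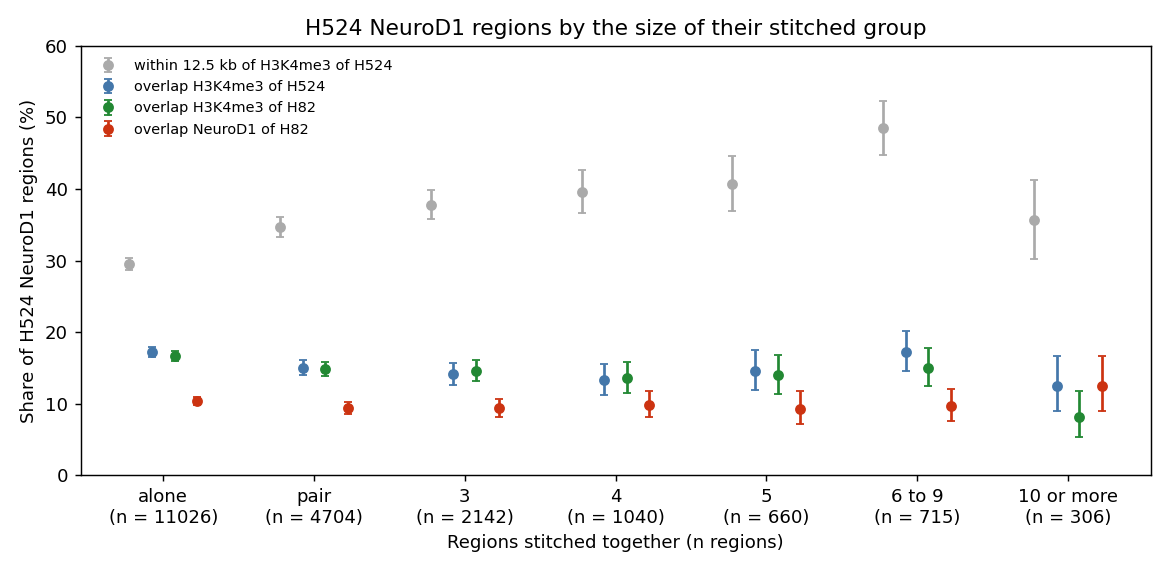
Share of H524 NeuroD1 regions (%) that lie within 12500 bp of H524 H3K4me3, or overlap H524 H3K4me3, H82 H3K4me3 or H82 NeuroD1, by the number of regions stitched together; bars are exact 95% intervals. The share within 12500 bp of H3K4me3 is 29.6% for lone regions, highest at 48.5% in clusters of 6 to 9, and 35.6% in clusters of 10 or more, where overlap with H82 H3K4me3 is lowest at 8.17%.

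NeuroD1 of H82 lay on members about as often as on other regions. It overlapped 471 members (9.69%, 8.87 to 10.6) and 1584 other regions (10.1%, 9.60 to 10.6), a difference of -0.38 points (-1.32 to 0.59), beside 9.98% of the list. The direction depended on the counting: with identical intervals kept as separate regions the difference was 4.19 points (3.31 to 5.08), and within 10 width classes it was -1.97 points (-2.95 to -0.99). When identical intervals are kept, a region counts once per summit. A single region with 3 or more summits then forms a cluster by itself, so that value does not describe the clusters defined above. In clusters of 10 or more members, 38 of 306 members (12.4%, 8.94 to 16.6) were shared with H82.

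Sharing with H82 followed the score, in members and in other regions alike. From the highest to the lowest of 10 score classes it went from 26.6% to 2.48% of members. Among other regions it went from 25.8% to 3.42%. The highest-scoring member of a cluster overlapped H82 NeuroD1 in 236 of 1237 clusters (19.1%, 16.9 to 21.4), against 235 of 3626 other members (6.48%, 5.70 to 7.33), a difference of 12.6 points (10.3 to 15.0). Within score classes the difference was 5.33 points (1.91 to 8.74). Scores still vary inside each of these classes, and the highest-scoring member is picked by its score. The comparison therefore cannot separate rank in the cluster from score. Shared members stood at a median percentile of 82.6 by score in the H524 list, against 48.4 for unshared members. They were also wider, at 797 bp, than unshared members, at 504 bp (medians). By position in the cluster no such difference was seen: 9.74% of first or last members and 9.63% of inner members were shared, a difference of 0.11 points (-1.55 to 1.78).

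Members with H3K4me3 of H524 were more often shared with H82 than members without it, at 15.2% (12.6 to 18.1) and 8.76% (7.92 to 9.66), a difference of 6.45 points (3.81 to 9.42). Among other regions the values were 16.6% with the mark and 8.78% without it. Both the H524 mark and H82 NeuroD1 lay on 106 members (2.18%) and 432 other regions (2.75%), beside 2.61% of the list. Neither the mark of either line nor H82 NeuroD1 was found on 3637 members (74.8%), against 11517 other regions (73.2%), beside 73.6% of the list.

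**Figure D3:**
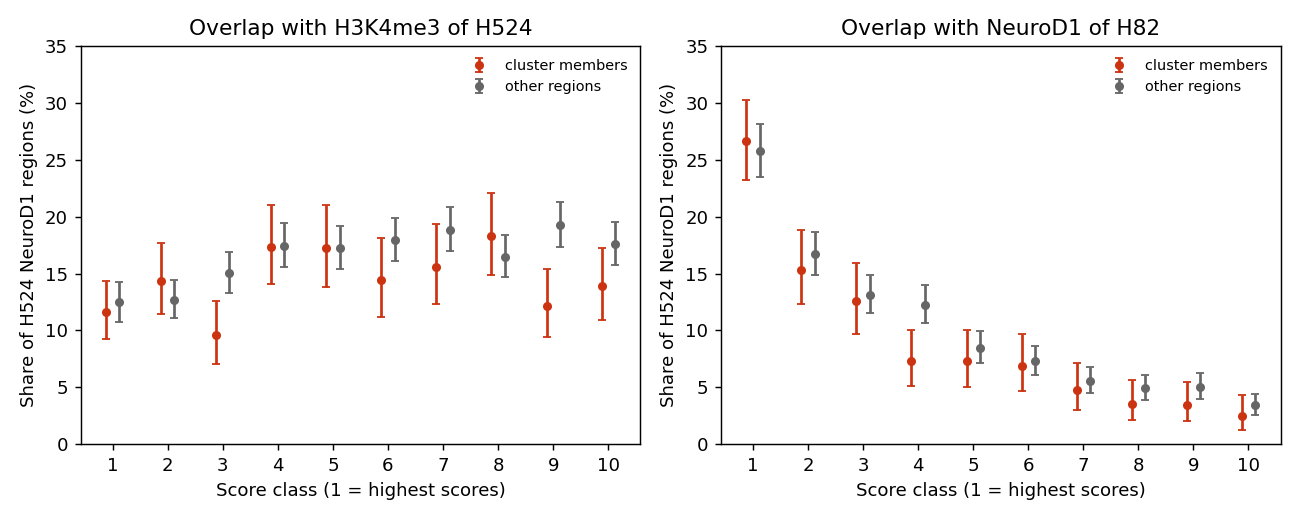
Share of H524 NeuroD1 regions (%) overlapping H524 H3K4me3 (left) and H82 NeuroD1 (right) in 10 score classes, class 1 being the highest, for cluster members and other regions; bars are exact 95% intervals. Overlap with H82 NeuroD1 is 26.6% for members and 25.8% for other regions in the highest class, and 2.48% and 3.42% in the lowest. Overlap with H3K4me3 for members is 11.6% in the highest class and 13.9% in the lowest. For other regions it is also lower in the highest class, with 177 of 1421, than in the lowest, with 277 of 1577 (17.6%).

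Taken by cluster, H3K4me3 of H524 was present within the span of 457 of the 1237 clusters (36.9%, 34.2 to 39.7), H3K4me3 of H82 in 436 (35.2%) and NeuroD1 of H82 in 375 (30.3%, 27.8 to 33.0). None of these was present in 551 clusters (44.5%). A cluster holds several members and the gaps between them, so these shares cannot be set against shares of regions. Per region, the H524 mark lay on 14.3% of members, beside 16.0% of the list, and H82 NeuroD1 on 9.69%, beside 9.98%. No such span count was made for pairs. No member carried the H524 mark in 836 clusters, exactly 1 member in 225 and 2 or more in 176, and in 26 clusters every member did. No member was shared with H82 in 886 clusters, and 86 clusters had 2 or more shared members. A marked member and a shared member occurred together in 154 clusters (12.4%).

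The spans of larger clusters held H524 H3K4me3 and H82 NeuroD1 more often. H524 H3K4me3 was in the span of 32.2% of clusters of 3 and of 56.0% of clusters of 10 or more, and H82 NeuroD1 in 25.5% and 64.0%. Median length was 9.34 kb in clusters of 3 and 46.1 kb in clusters of 10 or more, and its part in these shares was not tested. More members also give a cluster more places to hold a feature. Per member, the H524 mark lay on 14.1% (12.7 to 15.6) in clusters of 3 and 12.4% (8.94 to 16.6) in clusters of 10 or more. H82 NeuroD1 lay on 9.38% (8.18 to 10.7) and 12.4% (8.94 to 16.6) of members. Cluster spans held 940 H524 H3K4me3 regions, 5.06% of that list. Of these, 653 (69.5%) touched a member and the other 287 lay between members, at a median of 0.655 kb from the nearest. The spans also held 540 H82 NeuroD1 regions, 14.0% of the H82 list, of which 478 (88.5%, 85.5 to 91.1) touched a member. Of the whole H82 list, 53.6% overlapped an H524 NeuroD1 region. A span begins and ends with a member, so regions inside it lie near members by construction.

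H82 formed far fewer clusters under the same rule. The H82 list gave 79 clusters with 275 of 3854 regions (7.14%), at most 7 members and a length of up to 33.9 kb. Of these, 41 (51.9%, 40.4 to 63.3) overlapped an H524 cluster, and 39 H524 clusters (3.15%) overlapped an H82 cluster. In lists of equal length the order was the other way: the 3854 highest-scoring H524 regions gave 55 clusters with 188 members (4.88%), against 79 clusters with 275 members (7.14%) for H82. An H524 NeuroD1 region lay in 74 of the 79 H82 clusters, and it overlapped 55.6% of their members and 53.5% of other H82 regions, beside 53.6% of the H82 list (2.19 points, -3.94 to 8.17). All members were shared with H82 in 5 H524 clusters, namely chr17:70939223-70953096, chr12:52257928-52268304, chr12:57848201-57856717, chr8:128309540-128316853 and chr17:7738982-7745845. Each of them overlapped an H82 cluster, which largely follows from having H82 NeuroD1 on every member.

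Individual clusters are given in hg19 with 1-based coordinates. A gene named beside a cluster is background knowledge of where that gene lies in hg19 and was not read from an annotation of that build, so the distance of a member to a start site was not measured. Outside the chromosome 8 block, the 10 clusters with most members were named, and 5 each for the greatest length, the highest score, the most members shared with H82, the largest share of length under H524 H3K4me3, or the most members with neither the mark nor H82 NeuroD1.

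Of the 10 clusters with most members outside the chromosome 8 block, TSHZ1 and NKX2-1 had the H524 mark on 9 members each and the others on 2 members at most. The cluster with most members, chr16:85449075-85532594, lay upstream of GSE1, which encodes a chromatin co-repressor subunit, and had 22 members over 83.5 kb with scores from 1.34 to 29.4. None of its members had H3K4me3 of either line, and 3 were shared with H82. The longest cluster, chr17:55589237-55692729, lay within MSI2, which encodes an RNA-binding protein of stem and progenitor cells, and had 19 members over 103 kb. Its highest score was 44.2, H524 H3K4me3 was absent from its span, 3 members had the H82 mark and 6 were shared with H82.

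On chromosome 22, chr22:42699757-42796514 had 17 members over 96.8 kb, of which 0 had H524 H3K4me3 and 1 was shared with H82. At TSPAN9, a tetraspanin gene, chr12:3310953-3361976 had 15 members, of which 1 was marked in H524 and 3 were shared. At SSBP3, whose product is a cofactor of LIM-domain transcription complexes, chr1:54755023-54809110 had 13 members, none with the mark of either line and 4 shared with H82. At SIPA1L3, which encodes a GTPase-activating protein, chr19:38525002-38568970 had 13 unmarked members with 2 shared, and its highest score was 38.6. At GSE1 itself, chr16:85644271-85686706 had 10 members scoring up to 47.3, of which 1 had the H524 mark and 4 were shared.

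**Figure D4:**
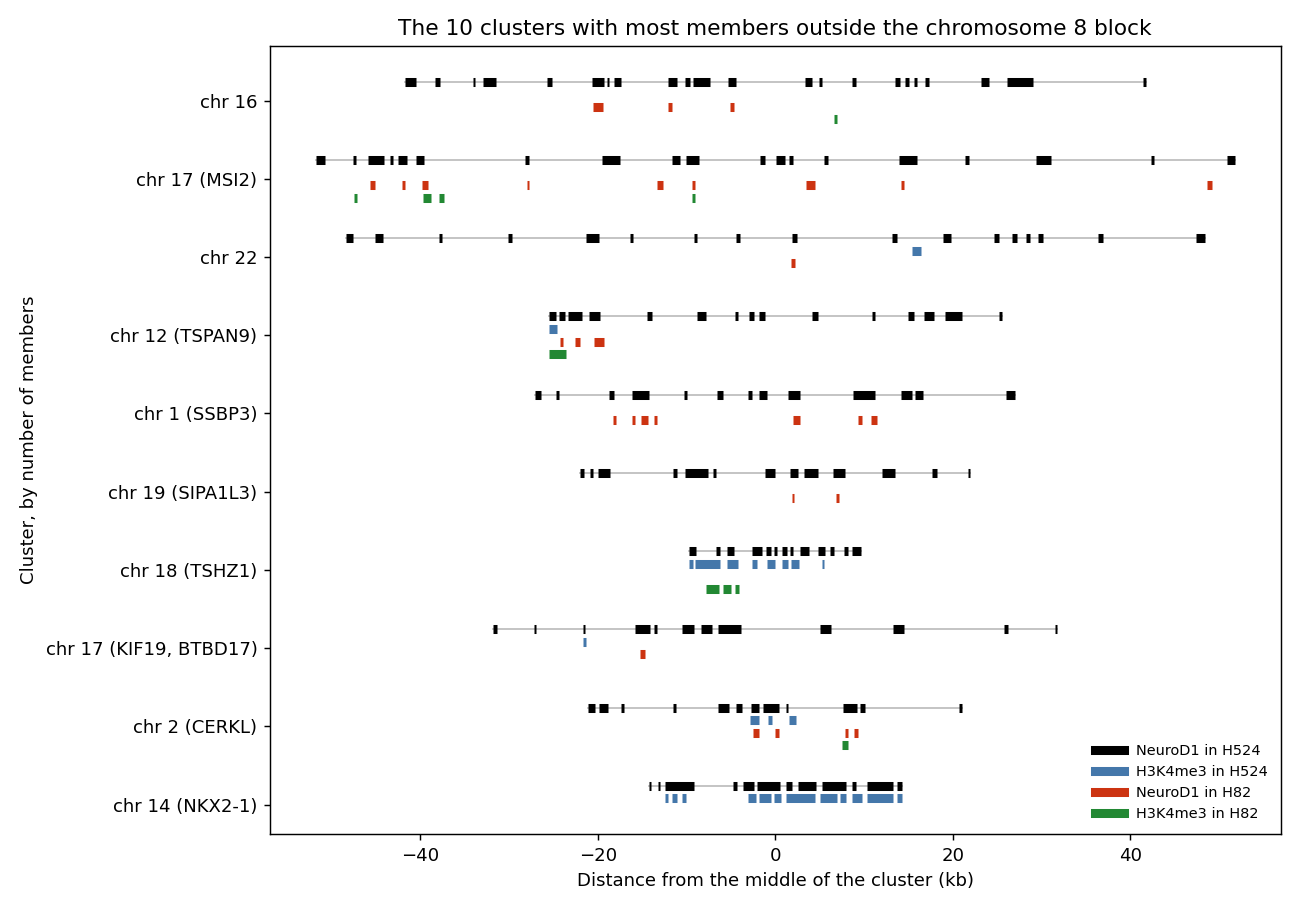
Map of the 10 clusters with most members outside the chromosome 8 block, with distance from the middle of each cluster in kb; bars show regions of NeuroD1 in H524 (black), H3K4me3 in H524 (blue), NeuroD1 in H82 (red) and H3K4me3 in H82 (green), and genes in parentheses are background. The TSHZ1 and NKX2-1 clusters carry H524 H3K4me3 on 9 members each, while the MSI2, SSBP3 and SIPA1L3 clusters and the chromosome 16 cluster carry it on none.

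Some clusters at transcription factor genes carried the H524 mark on most of their members. At NKX2-1, the lineage factor of lung and thyroid, chr14:36961926-36990438 had 12 members whose scores ran from 1.76 to 10.5. Of these, 9 had H524 H3K4me3, which covered 53.1% of the cluster length, while neither H3K4me3 nor NeuroD1 of H82 lay in the span. At TSHZ1, a zinc finger homeobox gene, chr18:72917196-72936561 had 13 members over 19.4 kb, of which 9 had the H524 mark, 2 had the H82 mark and 0 were shared with H82.

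At OTX2, a homeobox gene of forebrain and retina, chr14:57273762-57284285 had 6 members with scores of 10.0, 11.0, 1.44, 11.9, 3.57 and 8.97 from left to right. All 6 had H3K4me3 in both lines, the H524 mark covered 92.8% of the cluster, and 4 members were shared with H82. A second cluster to the left, chr14:57196713-57222996, had 8 members, of which 1 had the H524 mark and 4 were shared. Both overlapped a cluster of H82, at chr14:57273063-57280945 with 5 members and at chr14:57197114-57227561 with 6. H82 also had 3 clusters further right, at chr14:57354332-57360707, chr14:57476094-57478668 and chr14:57524558-57547903, where H524 had 1, 1 and 2 NeuroD1 regions and no cluster. These H82 clusters were picked after their values were seen.

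Besides the OTX2 cluster, 4 clusters were named for the share of their length under H524 H3K4me3, and the scores of their members were at most 8.48. At SOX11, a neural SOX gene, chr2:5833634-5836730 had 3 members with scores of 5.34, 1.47 and 4.04, all marked in both lines and none shared with H82. At ROBO1, an axon guidance receptor gene, chr3:79065945-79068926 had 3 members, of which 2 had the H524 mark, 3 had the H82 mark and 1 was shared. At ANG and RNASE4, neighbouring secreted ribonuclease genes, chr14:21149887-21152573 had 3 members with scores of at most 3.63, all within H524 H3K4me3. An unnamed site, chr1:188786251-188791669, had 3 members, all with H3K4me3 in H524 and none with it in H82.

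In the clusters with the highest single scores outside the chromosome 8 block, 1 or a few members stood far above the rest. These clusters were chosen by that score, so the contrast largely follows from the choice. Of all clusters, 13.0% had a highest score at least 10-fold their lowest. At KIF19 and BTBD17, chr17:72312299-72375853 had 12 members, of which 3 scored 119, 85.4 and 50.9, and 1 of the 12 was shared with H82. At NOTUM, which encodes a secreted Wnt inhibitor, chr17:79917608-79935702 had 3 members with scores of 1.94, 97.3 and 4.54, and the middle one alone was shared with H82, while the outer ones alone had H3K4me3, in both lines. At PIP5K1C, a phosphoinositide kinase gene, chr19:3655648-3669331 had scores of 86.1, 1.76 and 9.39 and neither the mark nor H82 NeuroD1. At EYA2, a developmental cofactor gene, chr20:45599769-45609360 had 5 members, of which the highest scored 67.7, was marked in H524 and was shared with H82. The unnamed site chr17:77676039-77681400 had scores of 3.16, 9.34 and 80.1, and only the last member had the H524 mark and H82 NeuroD1.

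Clusters with neither the mark nor H82 NeuroD1 still reached 11 members. At CCDC88C, which encodes a regulator of Wnt signalling, chr14:91824729-91861614 had 11 members with a highest score of 28.9. The unnamed site chr12:125212355-125250013 had 10 members scoring at most 6.55. At TNIK, a kinase gene of the Wnt pathway, chr3:171081487-171119987 had 10 members scoring up to 12.2. At ZNF423, which encodes a zinc finger partner of EBF factors, chr16:49576440-49598997 had 9 members up to 14.2, and at MEGF11, a cell surface receptor gene of retinal neurons in the mouse, chr15:66386518-66424855 had 8 members up to 18.3. At PELI2, a ubiquitin ligase gene, chr14:56582062-56638499 had 9 members, and here 1 had the H524 mark, 5 had the H82 mark and 3 were shared with H82.

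The clusters at NEUROD1, at INSM1 and at GLI1 with INHBE, and the runs of clusters, fall outside the naming rule and were picked after their values were seen. At NEUROD1 itself, chr2:182540686-182549021 had 5 members scoring 2.74, 5.38, 26.9, 4.90 and 6.11 from left to right. All 5 had H3K4me3 in both lines, and the middle member alone, chr2:182543884-182546424, was shared with H82. It belonged to a run of 3 clusters with 20 members, which included chr2:182478196-182520371 within CERKL, a neighbouring retinal gene, with 12 members, of which 2 were marked in H524 and 3 were shared. At INSM1, a zinc finger gene of neuroendocrine differentiation, chr20:20343431-20353795 had 7 members with scores from 1.54 to 6.75. Of these, 5 had the H524 mark, 2 had the H82 mark and 0 were shared, and the run of 5 clusters that started there had 35 members with 1 shared.

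On chromosome 16 a run of 7 clusters, chr16:85128316-85394626, had 37 members, of which 1 had the H524 mark and 0 were shared. It was followed by a run of 4 clusters, chr16:85449075-85686706, that ended at GSE1 and had 42 members, of which 3 were marked in H524 and 9 were shared. On chromosome 17 a run of 7 clusters, chr17:70939223-71189647, reached just past SSTR2, a somatostatin receptor gene of neuroendocrine tumours, and had 25 members with 4 shared. These 4 were all members of its leftmost cluster, chr17:70939223-70953096. At GLI1 and INHBE, a Hedgehog effector and an activin subunit, chr12:57848201-57856717 had 3 members scoring 11.3, 10.1 and 12.9, all marked in both lines and all shared with H82.

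The block chr8:127000001-129000000 held all of the 10 highest scores of the H524 NeuroD1 list. Of its 86 NeuroD1 regions in H524, 66 (76.7%) were members, in 13 clusters, and 9 of the 10 highest scores in the whole list belonged to them. The remaining score, 267, belonged to a region of the block that was not a member. The members of the block are described next. The median score percentile was 94.0 for these members, against 52.2 for members elsewhere, and the median width was 1033 bp, against 523 bp. H524 H3K4me3 lay on 10 of the 66 members (15.2%), beside 16.0% of all H524 NeuroD1 regions. H82 H3K4me3 lay on 12 (18.2%), beside 15.6% of the list, and H82 NeuroD1 on 10 (15.2%), beside 9.98% of the list. Of the 66 members, 35 were in the highest of 10 score classes. In that class H82 NeuroD1 lay on 26.6% of all members and 25.8% of other regions. The scores of the block were not set against the input libraries.

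**Figure D5:**
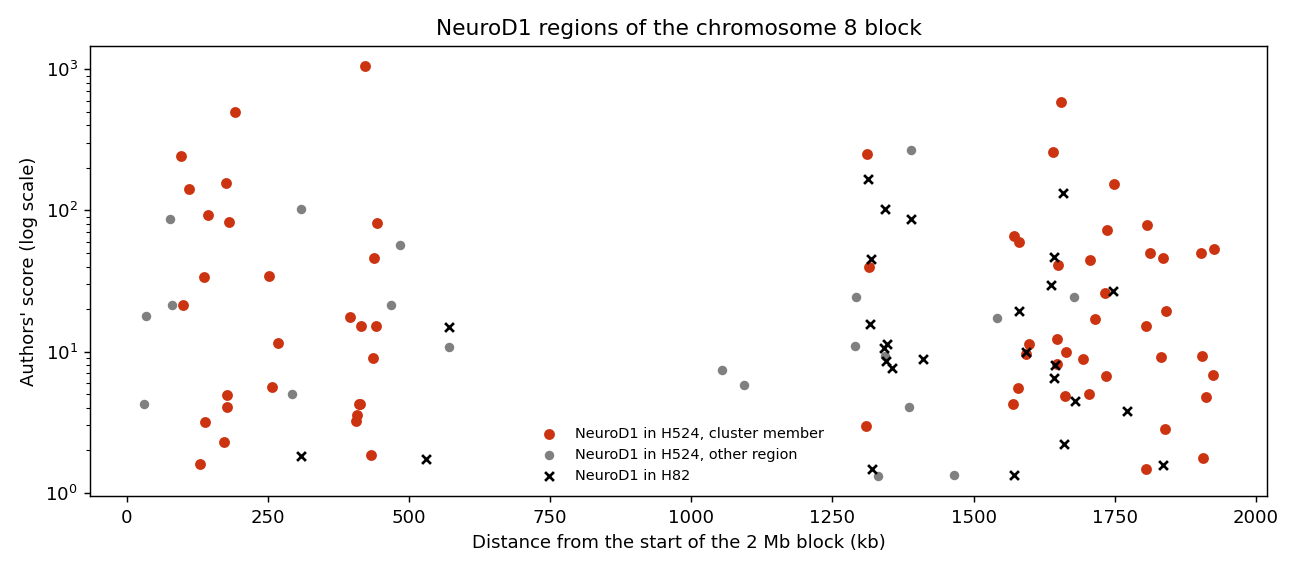
Authors' score (log scale) of each NeuroD1 region in chr8:127000001-129000000 against distance in kb from the start of the block, for H524 cluster members, other H524 regions and H82 regions. H524 members form a left and a right group and reach 1048; H82 regions lie mostly in the right group, and scores of different lists are not comparable.

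The highest score of the list, 1048, belonged to chr8:127416792-127426493 in the cluster chr8:127395437-127443995, which had 12 members, of which 1 was marked and 0 were shared with H82. In chr8:128635364-128664814 the 7 members covered 84.9% of 29.5 kb, 2 of them scored 587 and 261, and both of these were shared with H82. The cluster at MYC, an oncogene of small cell lung cancer, was chr8:128731422-128751847 with 4 members scoring 25.9, 6.73, 73.1 and 154 from left to right. Its last 2 members had H524 H3K4me3, and the last alone had the H82 mark and H82 NeuroD1. At PVT1, the non-coding neighbour of MYC, chr8:128805174-128814004 had 4 members scoring 1.48, 15.1, 79.1 and 49.7, all with H3K4me3 in both lines and none shared with H82. The 5 clusters in the left part of the block, up to chr8:127443995, held no H82 NeuroD1 region. Leaving the block out changed the member shares little: H524 H3K4me3 lay on 14.3% of the 4797 remaining members and 16.6% of other regions, and H82 NeuroD1 on 9.61% and 10.1%.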

How the data were processed

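Each of the 4 deposited lists gives chromosome, start, end, name and score for 1 library. The submitters' processing notes name Bowtie 1.1.2, MACS2 2.1.1 and the build hg19, without settings; no source used here says whether the inputs served as controls. The authors' deposited score was read as −log10 of an adjusted p-value, since its lowest value was about 1.304 and 1.301 corresponds to 0.05. Intervals repeated once per summit were merged, with the highest score kept. A longer list or wider regions stitch more readily, and stitching was not adjusted for either.

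Overlap meant 1 bp or more. Shares have exact Clopper-Pearson 95% intervals and differences Newcombe intervals; standardised differences weight 10 score classes, 10 width classes or chromosomes by their members. Stitching and overlap were tested on simulated data. Tables and intervals were made with pandas 2.3.3 and scipy 1.17.1 under Python 3.11.15.

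The members, lists and named clusters were chosen with earlier results of these data known. Comparisons within 12500 bp of the mark, by rank or position within a cluster, of marks in both or single lines, of runs, of the H82 clusters and of regions in pairs were added after the data were seen. No hg19 annotation or genome was used. Gene names are background knowledge of hg19; all 35 that were checked lie on the same chromosome in RefSeq GRCh38.p14, and 23 of 23 neighbouring pairs have the same order there, which checks neither distances nor overlap.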

Additional observations from a re-analysis of the deposited data

Results flagged for a closer look

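The contrast between cluster members and other NeuroD1 regions in overlap with H3K4me3 of the same line had opposite signs in H524 and H82. In H524 it was -2.22 percentage points (-3.35 to -1.06), from 697 of 4863 members and 2604 of 15730 other regions. In H82 it was 11.1 points (5.25 to 17.1), from 109 of 275 members (39.6%) and 1023 of 3579 other regions (28.6%), beside 29.4% of all H82 NeuroD1 regions. H524 minus H82 came to -13.3 points, and this difference between the lines was not tested. With the 3854 highest-scoring H524 regions the H524 contrast was 4.49 points (-0.26 to 10.5), the same sign as in H82.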

How the results depend on the processing

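No paired analysis was possible because each group holds 1 library. The gene-list counts and the E-box content of members were not run, since no hg19 genome or annotation was used. Depth is unknown, so differences in list length could not be adjusted for it. In what follows, the contrasts in percentage points are, for members minus other regions, overlap with H524 H3K4me3 (A), overlap with H82 H3K4me3 (B), overlap with H82 NeuroD1 (C) and lying within 12500 bp of H524 H3K4me3 (D); for the highest-scoring minus other members, overlap with H82 NeuroD1 (E); and for H82 members minus other H82 regions, overlap with H82 H3K4me3 (F). Alternatives for B, D, E and F and for the H82 cluster count were chosen after seeing the data. The cause of the changes was not tested, beyond fewer or more regions being stitched.

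Stitching at 5 kb gave 721 clusters with 2591 members, 33.6% of the clusters with H524 H3K4me3 and 27.2% with H82 NeuroD1 in the span, turned A to 0.74 and B to 0.15, and gave 12.52 for D, 38 clusters in H82 and 21.3 for F. At 25 kb there were 7476 members, with 45.6% and 33.6% of clusters holding the mark and H82 NeuroD1, and D was 6.79. With 2 or more regions per cluster there were 3589 clusters and 9567 members, 30.1% and 21.9% of clusters held the mark and H82 NeuroD1, E was 8.66, and H82 had 353 clusters with F at 4.37. With 5 or more there were 263 clusters and 1681 members, 48.3% and 42.2% held the mark and H82 NeuroD1, A was -0.81, D was 10.8, and H82 had 8 clusters with F at 31.4.

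Stitching regions at or above the median score gave 366 clusters with 1332 members, 39.6% with H82 NeuroD1, turned A to 0.36, gave -0.84 for B, and in H82 gave 17 clusters and 20.7 for F. Stitching the 3854 highest-scoring H524 regions gave 55 clusters with 188 members, 45.5% with the mark and 50.9% with H82 NeuroD1, turned A to 4.49 and B to 4.02, and gave 1.21 for C, 19.1 for D and 16.5 for E. Without regions on H3K4me3, 27.0% of clusters held H82 NeuroD1, E was 9.80 and H82 had 33 clusters. With identical intervals kept there were 1964 clusters and 8476 members, 31.6% with the mark, B was -0.95, C 4.19, D 7.38 and E 7.64, and H82 had 133 clusters with F at 19.3.

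Within 1 kb in place of overlap, C was 1.59 and E 10.1. With overlap of at least 50% of the region, 23.9% and 18.1% of clusters held the mark and H82 NeuroD1, and E was 6.57. With the other list at or above its median score these were 28.0% and 20.3%, and E was 9.37. E was 5.33 within score classes and 9.98 within width classes, C was -1.97 within width classes, and within chromosomes A was -3.57 and D 6.93. D, E and F kept their sign under each alternative run.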
